A study of Mus musculus with 36 samples.

Results

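Gene expression of mouse embryonic stem cells (mESCs) was compared between soft and stiff StemBond hydrogels after 24 h in serum + LIF. StemBond hydrogels are polyacrylamide gels carrying a co-factor through which matrix protein, here fibronectin, is bound covalently. LIF is the cytokine that sustains self-renewal of mESCs through STAT3. The comparison was chosen by its column headings in the count table, which gave 3 soft and 3 stiff libraries, 6 of the 36 libraries of the series. Both groups were wild-type cells labelled 129m wt, and both received the same medium for the same time, so that stiffness was the only labelled difference. The labels do not say whether the 3 libraries of a group came from separate cultures, so the spread within a group may be technical. The p-values below rest on such spread, estimated for each gene over the groups of all 36 libraries. Columns carried no replicate number, so libraries were numbered here in column order without any pairing. All 6 libraries came from a single sequencing pool. The other libraries were grown for 48 h on hydrogels or tissue culture plastic, some with the MEK inhibitor PD03 and some without LIF. They entered the fit to estimate the spread of each gene. Only the 48 h hydrogel libraries in serum + LIF were compared with the 24 h result.

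Naïve pluripotency is the state of the epiblast before implantation and is held by transcription factors such as Nanog, Esrrb and Klf4. Formative cells, the next state, lose these factors and express genes such as Pou3f1 and Otx2. Cells sense stiffness through integrins, the receptors for matrix proteins, which connect to actin at focal adhesions. When actin polymerises, free actin monomers fall and the co-activator MRTF enters the nucleus, where it acts with SRF on genes of the actin cytoskeleton. YAP and TAZ are co-activators that enter the nucleus in spread cells under tension and act with TEAD factors on genes such as Ccn1 and Ccn2.

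The soft libraries held 11124741 to 16539932 counts and the stiff libraries 19857202 to 22530889, so every soft library was shallower than every stiff library. The share of counts from the mitochondrial genome was 1.132% to 1.545%, and the most abundant gene, the lincRNA Gm26917, held 1.627% to 2.188%. In a principal component analysis of the 1000 most variable genes, component 1 accounted for 47.6% of the variance. Soft libraries lay on it at 6.903, 6.398 and 6.225 and the stiff libraries at -4.54, -6.747 and -8.239. Component 2, with 17% of the variance, separated soft library 1 at -5.421 from soft library 3 at 7.081. The labelled cell type was checked with 13 ES cell markers, all of them detected, whose summed level was 5110 to 5530 CPM (counts scaled to library size) on soft and 5030 to 5050 CPM on stiff substrates.

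Most of the genes that differed were lower on soft substrates. Of 17702 genes tested with edgeR, 628 passed an adjusted p of 0.05, which is 3.55% of the genes tested. Of these, 182 were higher (1.03% of genes tested) and 446 lower (2.52%) on soft substrates. With DESeq2 the split was 277 higher and 472 lower, and with an offset for exonic length and GC content 284 higher and 435 lower. The differences were small. All differences below are log2 values, soft minus stiff, and errors after ± are standard errors (SE) from the model unless named SD. The median was 0.32 among the genes that were higher (quartiles 0.239 and 0.474) and -0.457 among those that were lower (quartiles -0.672 and -0.291), against -0.0016 over all genes tested. Only 5 higher and 112 lower genes passed a test for a change beyond a fold of 1.2, 117 in all or 0.661% of the genes tested. A difference of at least 1 on the log2 scale at a mean of at least 5 CPM was found for 1 higher gene and 15 lower genes. In these bulk samples, fewer cells of a type and less RNA per cell cannot be told apart.

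The soft and stiff libraries did not overlap for 171 of the 182 higher genes and 437 of the 446 lower genes. Over all genes tested, soft libraries lay above all stiff libraries for 1282 genes (7.24%) and below them for 1738 (9.82%), so lack of overlap alone was common. The share of genes called grew with abundance, from 0.417% of genes with a mean under 1 CPM to 7.11% of those over 100 CPM. Counts of list members below stand against these shares, and against 1.03% higher and 2.52% lower over all genes tested. Protein-coding genes made up 98.2% of the genes called and 82.6% of those tested.

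**Figure D1:**
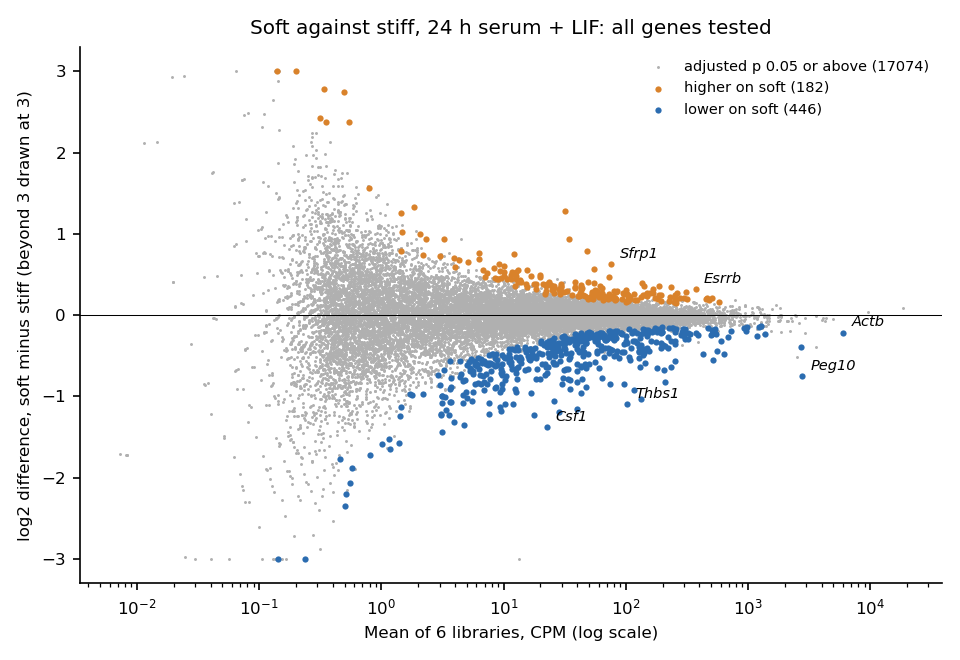
Each point is a gene tested at 24 h; the x axis is its mean over the 6 libraries in CPM on a log scale and the y axis its log2 difference, soft minus stiff, with values beyond 3 drawn at 3. The 446 genes lower on soft substrates (blue) outnumber the 182 higher genes (orange), and the other genes (grey) had an adjusted p of 0.05 or above.

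Naïve pluripotency factors were higher on soft substrates. Of the 15 naïve genes listed, 11 rose and none fell, with a median log2 difference of 0.273 over the list. The study displayed chosen general, naïve and formative pluripotency genes from these samples. For the genes displayed, these lists are thus not independent evidence. Leaving out any 1 library gave 8 to 12 genes. Klf4, a factor downstream of STAT3 (chr4:55527143-55532466, GRCm38), was at 226, 208 and 202 CPM in the soft libraries and at 164, 162 and 168 CPM in the stiff libraries. Its log2 difference was 0.36 ± 0.05 (SE, n = 3 in each group, edgeR adjusted p = 1.484e-07). All 3 soft libraries were thus above all 3 stiff libraries, as they were for 13 of the 15 naïve genes.

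Nanog, which allows self-renewal with little LIF (chr6:122707489-122714633), was at 280, 268 and 244 CPM on soft and 208, 197 and 216 CPM on stiff substrates, a difference of 0.35 ± 0.06. Esrrb, an orphan nuclear receptor (chr12:86361117-86521628), was the most abundant of the naïve factors that rose after Zfp42. It was at 435, 420 and 389 CPM on soft and 334, 322 and 342 CPM on stiff substrates, a difference of 0.32 ± 0.05. Tbx3, a T-box factor, was at 169, 156 and 148 CPM against 128, 118 and 124 CPM, a difference of 0.35 ± 0.05. These differences had edgeR adjusted p-values of 2.935e-05 for Nanog, 2.198e-06 for Esrrb and 8.954e-07 for Tbx3, and for each gene the groups did not overlap.

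Klf2, a relative of Klf4, was higher by 0.33 ± 0.06, and the STAT3 target Tfcp2l1 and the nuclear receptor Nr5a2 were each higher by 0.27 ± 0.05. Prdm14, which represses FGF signalling and DNA methylation genes, had the largest difference of the list, 0.54 ± 0.13, but lost its call without stiff library 2 or soft library 2. Calls for Tcl1 (0.38), Nr0b1 (0.24) and Zfp42 (Rex1; 0.21) were likewise lost when single libraries were left out. Zfp42 was at 530, 500 and 463 CPM on soft and 451, 442 and 394 CPM on stiff substrates, so the groups were close together.

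The 4 naïve genes that did not pass were Fgf4 (log2 difference 0.19, adjusted p = 0.06212), Stat3 (0.16, 0.1048), Klf5 (0.01, 0.9667) and Dppa3 (-0.05, 0.8812). Soft library 1 held the highest level of the 6 libraries for 9 of the 11 naïve genes that rose and soft library 2 for the other 2. It was also the shallowest library. After thinning all libraries to its depth, Nanog, Klf4, Esrrb and Tbx3 still passed.

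None of the 3 general pluripotency factors passed with edgeR or DESeq2, and 1 had an unadjusted p under 0.05. Pou5f1 (Oct4) was at 627, 570 and 474 CPM on soft and 495, 528 and 499 CPM on stiff substrates, and its groups overlapped. Its log2 difference was 0.13 ± 0.07, that of Sox2 0.10 and that of Sall4 -0.01. Of 10 formative genes, 1 rose and 2 fell. Pou3f1 (Oct6), a POU factor of the post-implantation epiblast, was at 35.4, 32 and 33.5 CPM on soft and 48.7, 51.5 and 56.9 CPM on stiff substrates, a difference of -0.64 ± 0.09 (edgeR adjusted p = 1.294e-06). Lef1, a factor of the Wnt pathway, had a difference of -0.35 ± 0.09, a call lost without stiff library 2, soft library 2 or soft library 3. The zinc finger factor Zic2 went the other way, with 54.9, 57.6 and 55.5 CPM on soft and 47.3, 42.4 and 37.1 CPM on stiff substrates, higher by 0.41 ± 0.07. Otx2 (-0.04) and the DNA methyltransferase Dnmt3b (-0.13) did not pass, nor did Fgf5, at a mean of 1.533 CPM. Formative genes thus moved in both directions.

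**Figure D2:**
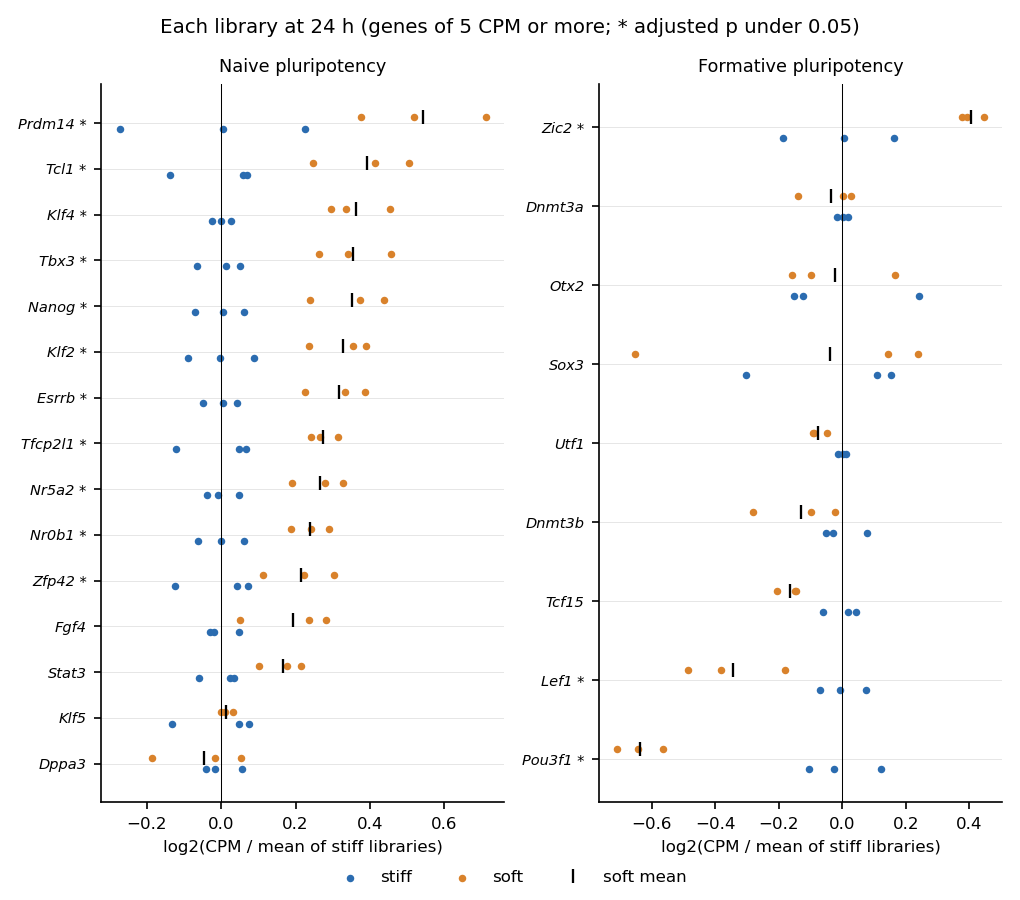
Levels of naïve (left) and formative (right) pluripotency genes of at least 5 CPM in each library, as log2 of CPM over the mean of the 3 stiff libraries, with soft libraries in orange, stiff libraries in blue, the soft mean as a black bar and an asterisk at an adjusted p under 0.05. Soft libraries lie right of the stiff libraries for the 11 naïve genes with an asterisk, while in the formative panel Zic2 lies right and Pou3f1 and Lef1 lie left.

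The embryo gives another reference for these states. From gene clusters that the study took from mouse embryos, 197 genes of the post-implantation epiblast and 137 of the pre-implantation epiblast were tested. Of the post-implantation genes, 29 fell (14.7%, against 2.52% over all genes tested) and 1 rose (0.508%, against 1.03%), with a median of -0.067. They included the guidance receptor Unc5b (-0.49), Sema6a (-0.79), the carbonic anhydrase Car2 (-0.46) and Pou3f1, and also Ptpn14 and Tpm2, which stand in the YAP and SRF lists. Of the pre-implantation genes, 8 rose (5.84%) and 7 fell (5.11%), with a median of 0.043. Those that rose included Esrrb and the nucleoside transporter Slc29a1 (0.26), and those that fell included Ddah1 (-0.35) and the calcium-binding protein S100a6 (-0.40). Leaving out 1 library gave 2 to 7 pre-implantation genes higher and 1 to 3 lower.

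Genes of SRF and MRTF formed the list with the largest share of members lower on soft substrates. Of 26 targets tested, 22 fell and none rose, with a median log2 difference of -0.445 and 18 to 21 members lower with 1 library left out. Flnc, Tagln, Acta2, Acta1 and Cnn1 were displayed by the study from these samples, so that for them the list is not independent evidence. Promoters were read because SRF binds the CArG box, a short A/T-rich core between 2 C and 2 G bases. RefSeq promoters (GRCm38.p6; 250 bases before to 50 after the gene start) were matched for 11989 of the genes tested. A CArG box on either strand was found in 9 of 23 SRF and MRTF targets with a promoter (39.1%), in 18 of 330 genes lower on soft substrates (5.45%), in 2 of 131 higher genes (1.53%) and in 195 of all 11989 genes (1.63%). The list was drawn from known targets, so its share restates that knowledge. Without the list's members, the share among lower genes was 11 of 311 (3.54%). The 4 promoters below, cut to the 250 bases before the gene start, belong to targets that fell and hold a box, shown in capitals. Vcl and Actg1 were named by the rule for genes, and Acta1 and Cnn2 were added after their values were seen.

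These promoters run 5′ to 3′ on the strand of the gene.
Vcl, chr14:20929148-20929397 (+ strand): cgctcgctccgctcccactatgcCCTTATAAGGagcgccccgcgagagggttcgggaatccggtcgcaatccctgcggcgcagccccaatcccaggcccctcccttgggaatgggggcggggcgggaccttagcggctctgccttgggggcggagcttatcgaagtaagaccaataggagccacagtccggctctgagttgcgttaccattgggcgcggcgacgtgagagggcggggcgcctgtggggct
Actg1, chr11:120348496-120348745 (- strand): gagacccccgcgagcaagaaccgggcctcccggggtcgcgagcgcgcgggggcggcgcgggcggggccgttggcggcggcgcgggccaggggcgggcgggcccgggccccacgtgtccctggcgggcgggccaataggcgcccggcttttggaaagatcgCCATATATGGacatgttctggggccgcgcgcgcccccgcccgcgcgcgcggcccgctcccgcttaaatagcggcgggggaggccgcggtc
Acta1, chr8:123894776-123895025 (- strand): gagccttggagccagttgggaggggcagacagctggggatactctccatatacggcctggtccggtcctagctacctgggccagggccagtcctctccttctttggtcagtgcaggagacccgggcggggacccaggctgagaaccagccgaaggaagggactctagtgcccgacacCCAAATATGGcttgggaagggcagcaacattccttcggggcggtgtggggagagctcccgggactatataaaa
Cnn2, chr10:79988350-79988599 (+ strand): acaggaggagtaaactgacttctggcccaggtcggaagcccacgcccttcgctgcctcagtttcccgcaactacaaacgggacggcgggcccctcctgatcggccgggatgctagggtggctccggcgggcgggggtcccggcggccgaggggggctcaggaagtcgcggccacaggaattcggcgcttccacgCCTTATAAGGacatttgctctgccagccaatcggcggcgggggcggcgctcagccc

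The box began 227 bases before the gene start in Vcl, 90 in Actg1, 73 in Acta1 and 56 in Cnn2. Vcl and Cnn2 held the same 10 bases, CCTTATAAGG. A box was also found in the promoters of Actc1 (CCAAATAAGG), Fhl2 (CCTTATATGG) and Myl9 (CCTAATAAGG), which fell too. The rest of the 9 targets with a box did not pass, so a box was not confined to targets that fell. A match of letters is a description and not evidence of binding.

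Actins and actin-binding proteins of muscle had the largest differences of the list. Acta2, smooth muscle actin, was at 17, 15 and 18.6 CPM on soft and 35.9, 34.9 and 35.3 CPM on stiff substrates, a log2 difference of -1.06 ± 0.13 (edgeR adjusted p = 2.719e-08). Acta1, skeletal actin, was at 6.62, 6.04 and 6.65 CPM against 12, 12.8 and 12.4 CPM. Tagln (SM22), an actin-binding protein, was at 9.84, 6.86 and 6.42 CPM against 12.9, 17.4 and 18 CPM. Flnc, the filamin that crosslinks actin in muscle (chr6:29433256-29461883), was at 93.4, 83.4 and 87.5 CPM against 172, 190 and 179 CPM, a difference of -1.04 ± 0.07 (adjusted p = 6.224e-16). None of these 4 genes overlapped between the groups.

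Targets found in most cell types had smaller differences. Tropomyosin Tpm1, which lies along actin filaments, was at 189, 178 and 179 CPM on soft and 268, 289 and 292 CPM on stiff substrates, a difference of -0.64 ± 0.05. Vcl, vinculin, which links talin to actin, was at 118, 120 and 109 CPM against 145, 152 and 151 CPM, a difference of -0.37 ± 0.05. Myh9, the heavy chain of non-muscle myosin, was at 482, 493 and 455 CPM against 651, 654 and 628 CPM, a difference of -0.44 ± 0.05. These 3 genes did not overlap between groups either. Actb, cytoplasmic actin and often a reference gene, was at 5591, 5713 and 5347 CPM against 6403, 6381 and 6544 CPM, a difference of -0.21 ± 0.04 (edgeR adjusted p = 0.0009468). Gapdh, another common reference gene, was at a log2 difference of -0.01. Actg1 had a difference of -0.26 ± 0.06, a call lost without stiff library 3, soft library 2 or soft library 3, and both cytoplasmic actins have pseudogenes that could share their reads. Srf itself was at 128, 131 and 118 CPM against 130, 127 and 125 CPM (log2 difference -0.02), so its own level did not pass while 22 of its targets did.

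Of 24 YAP and TEAD targets, 13 fell and none rose, with a median of -0.428, and 11 to 14 fell with 1 library left out. Thbs1, the matrix protein thrombospondin 1 (chr2:118111876-118127133), was at 67.2, 66.6 and 62.8 CPM on soft and 123, 146 and 149 CPM on stiff substrates, a difference of -1.09 ± 0.07 (edgeR adjusted p = 1.235e-15). Thbs1 too was displayed by the study. Ccn1 (Cyr61) was at 97.5, 92.1 and 75 CPM against 118, 147 and 120 CPM, and Ccn2 (CTGF) at 92.1, 93.2 and 87.5 CPM against 110, 118 and 117 CPM. Both are secreted matrix-associated proteins, and their differences were -0.55 ± 0.09 and -0.34 ± 0.05. The groups did not overlap for Thbs1, Ccn1 or Ccn2.

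Tgfb2, a TGF-beta ligand, had a difference of -1.1 ± 0.14, and the phosphatase Ptpn14, which binds YAP, one of -0.47 ± 0.06. Ajuba (-0.11) and Dlc1 (0.08) were the most abundant targets that did not pass. The TEAD core GGAATG, searched on both strands, was found in the promoters of 8 of 16 matched targets, in 71 of 330 genes lower on soft substrates (21.5%), in 22 of 131 higher genes (16.8%) and in 14.8% of all genes. No CArG box was found in these 16 promoters, while 8 of the 23 SRF and MRTF promoters held GGAATG (34.8%).

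Of 18 components of the Hippo pathway, which restrains YAP, 6 fell and 1 rose. Amot, angiomotin, which holds YAP at junctions and actin (chrX:145446425-145505181), was at 24.5, 25.2 and 25.6 CPM on soft and 37, 42.3 and 40.1 CPM on stiff substrates, a difference of -0.66 ± 0.08 (edgeR adjusted p = 7.61e-09). The co-factor Vgll3 (-0.51) and Tead1, a partner of YAP (-0.22), also fell. The differences of Lats2 (-0.48), Wwtr1 (TAZ, -0.22), Tead4 (-0.30) and Nf2 (0.15) were lost under several alternatives, and only 3 members fell when the libraries compared were fitted alone. Yap1 did not pass, at -0.05.

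**Figure D3:**
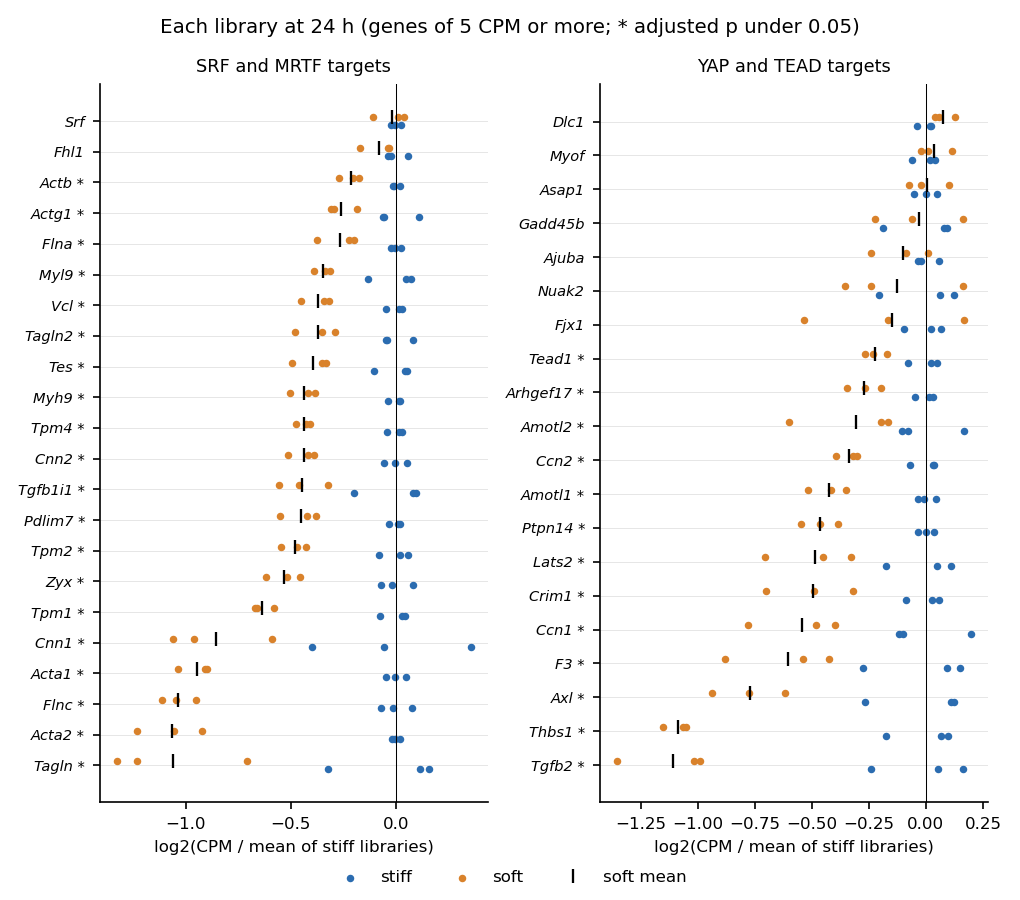
Levels of SRF and MRTF targets (left) and YAP and TEAD targets (right) of at least 5 CPM in each library, as log2 of CPM over the mean of the 3 stiff libraries, with soft libraries in orange, stiff libraries in blue, the soft mean as a black bar and an asterisk at an adjusted p under 0.05. Nearly every soft mean is left of 0, with Tagln, Acta2, Flnc, Acta1, Thbs1 and Tgfb2 about 1 log2 unit or more below the stiff mean and Srf at it.

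Integrins and the proteins they bind were in part lower on soft substrates. Of 14 integrin genes, 3 fell. Itga3, a laminin receptor chain, was at 142, 145 and 130 CPM on soft and 203, 226 and 226 CPM on stiff substrates, a difference of -0.65 ± 0.07. Itgb1, the beta chain shared by most matrix receptors, was at 189, 177 and 176 CPM against 219, 234 and 251 CPM, a difference of -0.38 ± 0.05. Itgav, a chain of vitronectin and fibronectin receptors, had a difference of -0.35 ± 0.06. Itga5, the chain of the main fibronectin receptor, did not pass at -0.18 (edgeR adjusted p = 0.08858).

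Of 27 focal adhesion genes, 12 fell and 1 rose, with a median of -0.27. Parva, parvin alpha, which ties integrin-linked kinase to actin, was at 23.3, 26.4 and 23.3 CPM on soft and 42.1, 48.2 and 47.0 CPM on stiff substrates, a difference of -0.91 ± 0.09. Lpp had a difference of -0.68 ± 0.06 and its relative Zyx, zyxin, which gathers at adhesions under tension, one of -0.53 ± 0.06, with Zyx levels on soft substrates of 76.2, 73.1 and 68.1 CPM against 103, 111 and 99.8 CPM. Focal adhesion kinase Ptk2 (0.01) and paxillin Pxn (0.03), chosen after their values were seen, did not pass.

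Of 28 actomyosin genes, 12 fell and none rose. The largest difference among those named was that of caldesmon, Cald1, at 156, 158 and 143 CPM on soft and 261, 293 and 254 CPM on stiff substrates, a difference of -0.82 ± 0.06. Cofilin Cfl1 (-0.03) did not pass. Among 10 intermediate filament and lamin genes, 6 fell. Krt8 and Krt18, which pair in simple epithelia, had differences of -0.92 ± 0.08 and -0.85 ± 0.07, and Krt19 one of -0.96 ± 0.11. Krt8 was at 92.6, 76.2 and 76.2 CPM on soft and 137, 157 and 168 CPM on stiff substrates. Nes, nestin, was at 30.8, 28.9 and 26.8 CPM against 50.9, 53.8 and 48.2 CPM, a difference of -0.83 ± 0.07. Vim, vimentin, had a difference of -0.26, while the B-type lamins Lmnb1 (-0.01) and Lmnb2 (-0.02) did not pass. Krt7 (-0.74), which also fell, stands in the list of trophectoderm markers too.

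Of 24 genes of cell-cell junctions, 7 fell and none rose. Dsp, desmoplakin, which anchors keratins at desmosomes, was at 98.7, 106 and 102 CPM on soft and 163, 167 and 148 CPM on stiff substrates, a difference of -0.64 ± 0.05 (edgeR adjusted p = 1.394e-12). Tjp1 (ZO-1), alpha-catenin Ctnna1 and p120-catenin Ctnnd1 fell too, with differences of -0.22, -0.19 and -0.20, and beta-catenin Ctnnb1 did not pass at -0.03. Leaving out soft library 1 or soft library 3 left 3 junction genes lower.

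Matrix genes were lower on soft substrates in part. Of 18 collagens, 6 fell. Collagen IV is the sheet-forming collagen of basement membranes, and its chains Col4a1 (chr8:11198423-11312826) and Col4a2 (chr8:11312805-11449287) lie head to head on opposite strands, where reads at their overlap cannot be told apart without a strand setting. Col4a1 was at 88.9, 86.7 and 89.9 CPM on soft and 128, 124 and 126 CPM on stiff substrates, a difference of -0.51 ± 0.06. Col4a2 was at 43.6, 47.3 and 49.8 CPM against 75.4, 80.8 and 85.6 CPM, a difference of -0.78 ± 0.07. Col1a1, of fibrillar collagen I, was at 14.2, 21.8 and 15.6 CPM against 36.1, 41.0 and 41.2 CPM, a difference of -1.19 ± 0.14. None of these chains overlapped between groups, whereas the abundant Col18a1 did not pass at -0.07.

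Serpinh1 (HSP47), the chaperone of collagen chains, was at 35.3, 30.3 and 34.9 CPM on soft and 55.7, 56.7 and 72.4 CPM on stiff substrates, a difference of -0.88 ± 0.08. It was among 4 of 24 matrix enzymes and inhibitors that fell, which included Timp2 (-0.69) and the lysyl hydroxylase Plod2 (-0.26). Without stiff library 2 only 2 of them fell, with Timp2 and Plod2 losing their calls. Of 21 laminins and glycoproteins, 5 fell and 1 rose, and without stiff library 2 only 2 fell. Fibronectin, the protein that coated the gels, did not pass as the transcript Fn1 (-0.05, edgeR adjusted p = 0.7162).

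**Figure D4:**
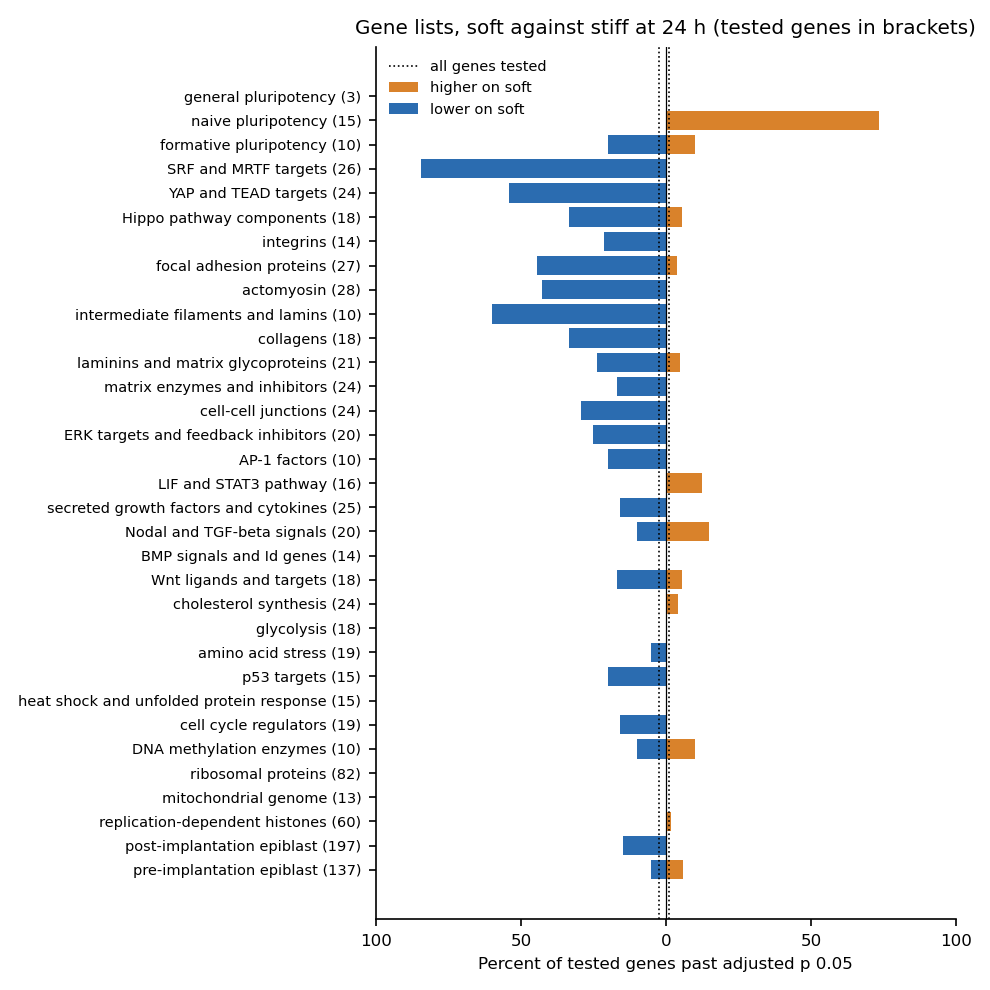
Bars give the percent of tested members of each gene list past an adjusted p of 0.05 at 24 h, lower on soft substrates to the left (blue) and higher to the right (orange), with the number tested in brackets and dotted lines at the share over all genes (1.03% higher, 2.52% lower). The naïve list reaches furthest to the right with 73.3%, and the SRF and MRTF list furthest to the left.

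Among genes with a mean of at least 5 CPM and groups that did not overlap, Csf1 had the largest difference. This macrophage growth factor (chr3:107741048-107760469) was at 14.1, 12.3 and 11.4 CPM on soft and 28.6, 36.1 and 32.7 CPM on stiff substrates, a difference of -1.38 ± 0.12 (edgeR adjusted p = 5.847e-12). The next of these genes were the myelin protein Pmp22 (-1.23), the matricellular Ccn4 (-1.21), Col1a1, coagulation factor V F5 (-1.18), the adhesion protein Phldb2 (-1.15), Wnt4 (-1.13), Tgfb2, Tagln and Thbs1. Phldb2 was at 24.9, 25.2 and 24.7 CPM on soft and 48.6, 57.9 and 59.6 CPM on stiff substrates. Of 25 secreted growth factors and cytokines, 4 fell and none rose, among them the growth factor Igf2 (123, 110 and 110 CPM against 168, 185 and 162 CPM) and the guidance factor Sema3e (-0.69). The imprinted gene Peg10, of retrotransposon origin (chr6:4747306-4760517), was the most abundant gene after Actb that fell, at 2089, 2137 and 2033 CPM on soft and 3320, 3835 and 3348 CPM on stiff substrates, a difference of -0.75 ± 0.06.

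Fewer genes stood out above the stiff level. Sfrp1, a secreted Wnt antagonist (chr8:23411502-23449632), was at 85.7, 100 and 91.3 CPM on soft and 63.9, 61.8 and 54.5 CPM on stiff substrates, higher by 0.63 ± 0.06 (edgeR adjusted p = 4.757e-11). Kit, the receptor for stem cell factor (chr5:75574916-75656722), was at 71.7, 65.8 and 60.4 CPM against 46.7, 41.3 and 45.4 CPM, higher by 0.56 ± 0.06. Neither overlapped between groups. By the same size rule the other genes included Gm10801 (0.94), Gm10800 (0.79), Gm14820 (0.77), Gm21738 (0.75), Rasal1 (0.66), Tmem151b (0.63) and Lefty1 (0.60). Gm10800, Gm10801 and Gm21738 have near-identical copies that can share reads, and Gm14820 is an antisense gene counted with no stated strand setting, so their values are uncertain.

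Some genes of ERK signalling were lower on soft substrates. Of 20 ERK targets and feedback inhibitors, 5 fell and none rose, with a median of -0.174. They were Phlda1 (-0.51), the phosphatases Dusp4 (-0.45), Dusp5 (-0.42) and Dusp6 (-0.31), and Myc (-0.20). Leaving out soft library 3 left 2 lower, and the call of Myc was lost in 7 of 12 alternatives. Ccnd1, an abundant member of the list, did not pass at -0.07. Of 10 AP-1 factors, Fosl2 (-0.79 ± 0.10) and Jun (-0.44 ± 0.10) fell, the latter not without stiff library 2 or soft library 3. In the LIF and STAT3 pathway, Klf4 and Tfcp2l1, which also stand in the naïve list, were the 2 of 16 genes that rose, and the receptor Lifr did not pass at 0.06.

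Of 20 Nodal and TGF-beta genes, 3 rose and 2 fell. The Nodal inhibitor Lefty1 was at 10.4, 10.8 and 14.8 CPM on soft and 8.74, 7.69 and 7.62 CPM on stiff substrates, a call lost without soft library 3. The calls of Lefty2 (0.38), Inhbb (0.32) and Skil (-0.17) were lost in 6, 3 and 11 of 12 alternatives, and 1 to 3 genes rose and 1 fell with 1 library left out. Nodal itself, also named after its value was seen, was at 0.02. Of 18 genes in the Wnt list, Sfrp1 rose and Wnt3 (-0.95), Lef1 and Axin2 (-0.30), a feedback target of the pathway, fell. No gene of that list fell without soft library 3. The ligand Wnt4 (-1.13), which was not in the list, lost its call under no alternative. None of 14 BMP and Id genes passed with edgeR or DESeq2, 4 of them having an unadjusted p under 0.05. Id1 was at -0.21 and Bmp4 at -0.11.

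Few genes of growth and stress passed. With edgeR no member passed among 18 glycolysis genes, 15 heat shock genes, 82 ribosomal protein genes and 13 genes of the mitochondrial genome. An unadjusted p under 0.05 was found for 4, 1, 9 and 1 of them, and DESeq2 called 1 mitochondrial gene lower and none of the others. With no filter on low counts, edgeR called 6 mitochondrial genes lower. Of 19 cell cycle regulators 3 fell, Ccne2 (-0.36), Cdk6 (-0.23) and Myc, and 0 or 1 fell with 1 library left out. Of 15 p53 targets 3 fell, the desmosome-associated Perp (-0.58), the kinase Plk2 (-0.46) and cyclin G1 Ccng1 (-0.25), while Trp53 was at 0.10. The cholesterol list had Mvd higher (0.33), the amino acid stress list Phgdh lower (-0.29), and among DNA methylation enzymes Tet2 was higher (0.20) and Tet3 lower (-0.29). The calls of Mvd, Phgdh, Tet2 and Tet3 were all lost without stiff library 2, among other libraries. Of 60 histone genes 1 passed, Hist1h3c, at 61.2, 17.5 and 57.6 CPM on soft and 18.2, 18.9 and 18.9 CPM on stiff substrates, where soft library 2 lay with the stiff libraries. Its call was lost in 7 of 12 alternatives. With only the libraries compared, 2 histone genes were called higher and 4 lower, and with no filter 3 higher and 6 lower.

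Markers of other cell types were read beside these groups. Of 10 feeder fibroblast markers tested, only Col1a1 fell. Their summed level was 37.2 to 48.7 CPM on soft and 65.4 to 74.8 CPM on stiff substrates, with Lum at 0 in every library. Of 13 primitive endoderm markers, Lrp2 (-0.56), Col4a1 and Dab2 (-0.39) fell and the defining factors Gata6 (0.13) and Gata4 (0.17), named after their values were seen, did not pass. The summed level of that list was 493 to 528 CPM against 620 to 653 CPM, with Afp at 0.

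Hand1, Krt7, Gata3 and Tead4 were the 4 of 8 trophectoderm markers that fell, and the list summed to 123 to 126 CPM on soft and 146 to 154 CPM on stiff substrates. Mesoderm markers summed to 31.1 to 36.7 CPM against 47.1 to 50 CPM, with Hand1 the 1 of 10 that fell. Hand1, a bHLH factor of trophoblast and mesoderm, was at 12.2, 10.8 and 11.4 CPM on soft and 22.8, 21.9 and 21.9 CPM on stiff substrates, a difference of -0.95 ± 0.11. Neuroectoderm markers summed to 146 to 154 CPM against 150 to 159 CPM, with Nes lower and Tubb3 (0.24) higher, though the call of Tubb3 was lost with any 1 library left out. None of 7 markers of rare 2-cell-like cells passed with edgeR or DESeq2, and 1 had an unadjusted p under 0.05. At 24 h the sums of the fibroblast, endoderm, trophectoderm and mesoderm lists were thus lower in every soft library. However, only 1 of 10, 3 of 13, 4 of 8 and 1 of 10 of their tested members fell. Col1a1, which averaged 17.2 CPM in soft and 39.4 CPM in stiff libraries, made up most of the shift of the fibroblast sum. Most of the endoderm shift lay in Lrp2 (205.4 against 303.3 CPM) and Col4a1 (88.49 against 125.9 CPM). Hand1, which averaged 11.5 CPM in soft and 22.22 CPM in stiff libraries, made up most of the mesoderm shift. It counts in the trophectoderm sum too. Col1a1, Col4a1 and Krt7 also stand in the collagen and intermediate filament lists. Whether other cells had a part in the differences of those lists was not tested.

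The comparison at 48 h in the same medium asked whether the differences depended on time. At 48 h the 3 soft libraries came from a single pool and the 3 stiff libraries from others, 1 of them from the pool of the 24 h libraries, so there pool and substrate cannot be told apart. With edgeR 138 genes passed at 48 h. Of the 182 genes higher at 24 h, 26 also passed at 48 h and 142 had the same sign, and of the 446 lower genes 45 passed and 369 had the same sign. None passed with the opposite sign. The higher genes had a median difference of 0.12 at the later time, and the lower genes one of -0.136. Nanog, for example, averaged 239 ± 9.64 CPM in soft and 222 ± 11.8 CPM in stiff libraries by then (mean ± SD, n = 3), and of the naïve genes only Tbx3 and Nr5a2 passed there.

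The difference between the 24 h and the 48 h contrasts itself passed for 45 genes (0.254% of genes tested). For 40 of them the 24 h difference was more negative, and 34 of the 45 were lower on soft substrates at 24 h. After 24 h Col4a2 averaged 46.9 ± 3.09 CPM in soft and 80.6 ± 5.06 CPM in stiff libraries, and after 48 h 50.3 ± 4.26 and 51.9 ± 3.12 CPM (mean ± SD, n = 3). Amot averaged 25.1 ± 0.575 CPM in soft and 39.8 ± 2.64 CPM in stiff libraries after 24 h, and 35.03 ± 2.59 and 35.4 ± 1.72 CPM after 48 h. Soft and stiff levels of both genes were thus close together at 48 h. Levels were not tested between times, since the soft libraries of the 2 times came from different pools and time and pool cannot be told apart.

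Serpinh1 and Col4a1 had log2 differences of -0.09 and -0.08 at 48 h. Nes (-0.21) and Dsp (-0.17) likewise did not pass at 48 h. The primitive endoderm list turned the other way, with 3 of 13 markers higher on soft substrates at 48 h, none lower and a median of 0.164. Among SRF targets, Cnn2 was at -0.00 and Vcl at -0.04 at 48 h, whereas Flnc (-0.59) and Tpm1 (-0.29) were still lower with edgeR, and all 4 passed the test of the difference between times. Thbs1 (-0.79) and Csf1 (-0.80) were lower at 48 h too, and Sfrp1 was higher (0.46). In the same test 5 genes had a more positive difference at 24 h, among them Appl2, which was named after its value was seen.

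**Figure D5:**
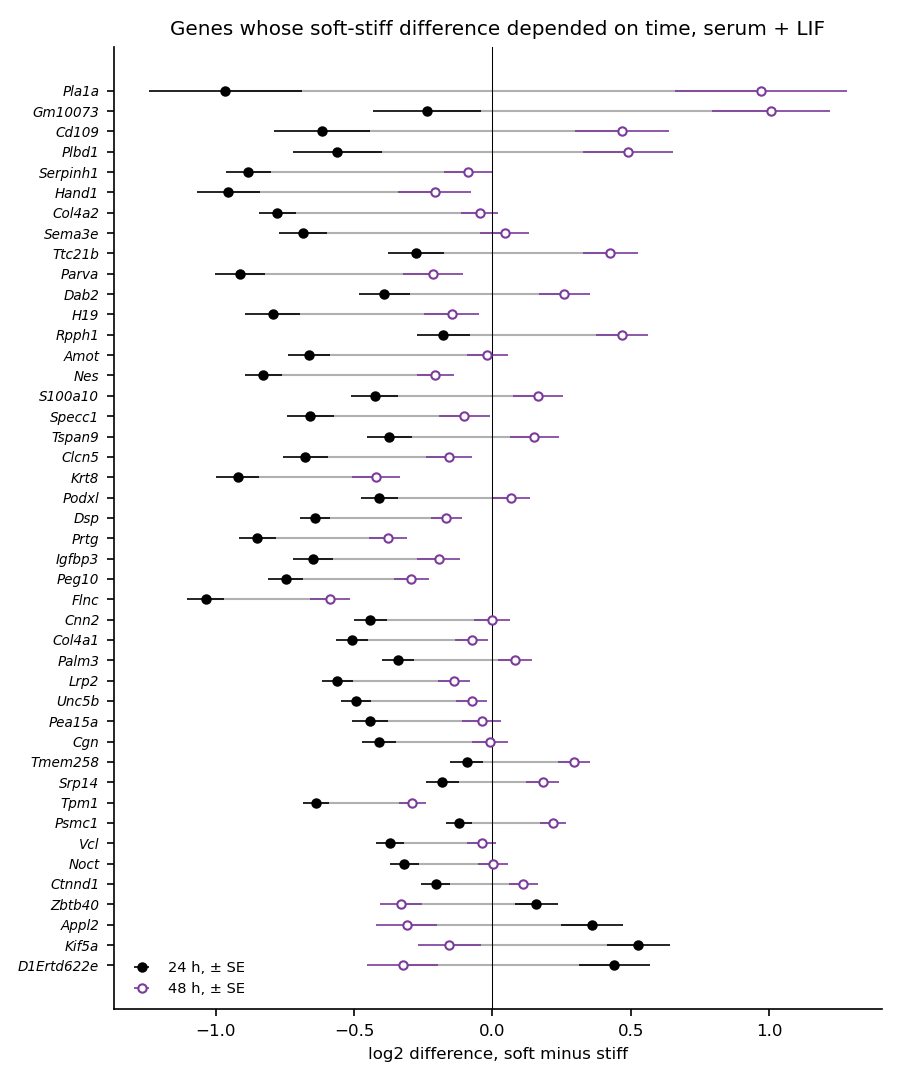
For genes whose soft-stiff difference depended on time (all but 1 of the 45), the log2 difference, soft minus stiff, is drawn at 24 h (black) and 48 h (open purple), each with its SE. The 40 genes in the upper part have the more negative value at 24 h, and for many of them, such as Col4a2 and Amot, the 48 h value lies near 0.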

How the data were processed

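RNA was extracted from cell lysates with a column kit including DNase treatment, and the labels name a NuGen kit for the libraries. Per the labels and the study's methods, the authors aligned reads with STAR 2.5.2a to GRCm38 (mm10) and counted them per Ensembl gene with HTSeq, and they deposited raw counts for 49671 genes. The strand setting was not given in the sources used here, nor was the handling of reads with several matches, so overlapping, antisense and duplicated genes are uncertain.

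Counts were tested with edgeR 4.0.16 (R 4.3.3). The filter filterByExpr was applied (17702 kept, 99.92% of counts) and libraries scaled by TMM. A quasi-likelihood model with 1 coefficient per group was fitted over 36 libraries in 11 groups, and p-values were adjusted by Benjamini-Hochberg over all genes tested, with a threshold of 0.05. The common biological coefficient of variation was 5.98%. A change beyond a fold of 1.2 was tested with glmTreat, and dependence on time as the 24 h minus the 48 h contrast. CPM used TMM-scaled library sizes. Coordinates came from GENCODE M21, which held 49412 of the gene identifiers, and promoters from RefSeq.

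Replicate pairs differed by more than sampling noise, with a chi-square per gene of 3.071 to 8.984. The fit was tested on simulated data. Total counts of 11124741 to 22530889 per library set the precision, and counting error falls with abundance. Genes and lists were chosen with earlier results of these data known. The text names, per direction, the 10 largest differences at a mean of at least 5 CPM without overlap and the 10 genes of highest mean, all pluripotency genes, up to 6 members of each other list past the threshold (smallest p) and 2 not past it (highest mean), and 5 for time. Members not tested had too few counts for the filter. Alternatives were DESeq2 1.42.0, its size factors, no filter, thinning to 11124741 counts, an offset for exonic length and GC, the 6 libraries alone, and each library left out. Some results are not reported here.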

Additional observations from a re-analysis of the deposited data

Results flagged for a closer look

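For 5 genes the soft-stiff difference at 24 h was set apart because it differed from that at 48 h in a test of the difference itself (edgeR, adjusted over all genes). The log2 difference at 24 h minus that at 48 h was -0.7304 ± 0.0939 for Col4a2 (SE, adjusted p = 8.776e-06) and -0.7943 ± 0.1186 for its chaperone Serpinh1 (adjusted p = 0.0001936). It was -0.6226 ± 0.0954 for Nes (adjusted p = 0.0002395), -0.645 ± 0.1055 for Amot and -0.4744 ± 0.0782 for Dsp, the last pair with an adjusted p of 0.0007151 each. All 5 were lower on soft substrates at 24 h and did not pass at 48 h. No pool held both substrates at 48 h in serum + LIF, so pool and substrate cannot be told apart there.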

How the results depend on the processing

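The count of 628 genes became 615 with DESeq2's size factors, 749 with DESeq2, 538 after thinning, 606 with no filter, 719 with the offset for exonic length and GC, and 466 with only the libraries compared. With 1 library left out it ranged from 416 (without stiff library 2) to 522. Genes higher on soft substrates numbered 182, but 115 with only the libraries compared, 284 with the offset and 277 with DESeq2, and 109 (without soft library 2) to 180 with 1 library left out. Genes lower ranged from 294 (without stiff library 2) to 374. Beyond a fold of 1.2, the 117 genes ranged from 75 (without soft library 3) to 127, with 77 without stiff library 2. The 45 genes that depended on time were 189 with no filter, 24 after thinning and 96 with DESeq2. With 1 library left out they ranged from 10 (without soft library 2 at 48 h) to 188 (without soft library 3 at 48 h), so this count rests on single libraries. The cause of these shifts was not tested. Of 142 named genes called, 58 lost the call under at least 1 of 12 alternatives and none changed sign, while 32 named genes not called changed sign. Of 80 list counts, 41 moved by over 1.5 times. No paired analysis was possible because the columns of the count table carry no replicate numbers. Soft libraries were shallower than stiff ones, which limits genes of low abundance: of 3834 genes with a mean under 1 CPM, 8 were called in each direction.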

Other observations

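Some gene families were read after the values of all genes had been seen, so their counts are descriptions. Of 42 lysosomal genes tested, 6 rose on soft substrates and none fell, with a median log2 difference of 0.069 against -0.0016 over all genes. They were the hydrolases Glb1 (0.31), Hexa (0.36), Scpep1 (0.23), Ctsa (0.24) and Naaa (0.72) and the activator Gm2a (0.31). Mitf, of the factor family that controls lysosomal genes, averaged 10.3 CPM in soft and 7.52 CPM in stiff libraries, higher by 0.44 (edgeR adjusted p = 0.005737). Its relatives Tfeb (0.32, edgeR adjusted p = 0.1091) and the more abundant Tfe3 (0.02, edgeR adjusted p = 0.9028) did not pass. Mitf was at -0.01 at 48 h.

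Of 26 imprinted genes, 5 fell and none rose, with a median of -0.143. They were Peg10, Igf2, the lncRNA H19 (-0.79), Peg3 (-0.35) and Sgce (-0.48), a neighbour of Peg10. Of 10 annexins, which bind membranes with calcium, 4 fell, namely Anxa3 (-0.78), Anxa5 (-0.64), Anxa2 (-0.60) and Anxa1 (-0.51). Of 8 genes with names that begin with S100, 3 fell, S100a10, the partner of Anxa2, with S100a6 and S100a11. The 8 included S100pbp (0.09), which encodes a binding partner and not an S100 protein. Their median was 0.164, but S100a16, S100a13, S100a1 and S100a3 averaged only 0.416 to 2.52 CPM and did not pass. Of 6 interferon-inducible guanylate-binding protein genes, 3 fell, Gbp3 (-1.44), Gbp2 (-0.91) and Gbp2b (-0.85), with a median of -0.878. The guanylate-binding genes are close relatives of each other, so reads may be shared between them.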
